A study of Mus musculus with 14 samples.

Results

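The 10 genes described here encode the proteins that bring fatty acids into fat cells: the lipase system of the capillary wall (Lpl, Gpihbp1 and Vldlr), the membrane transporters (Cd36, Slc27a1 and Slc27a4), the activating enzyme Acsl1, and the cytosolic carriers Fabp3, Fabp4 and Fabp5. They were taken by symbol from the 38553 Ensembl genes in the deposited tables, and each symbol matched 1 identifier. Poly(A) RNA was sequenced from the floating adipocyte layer of collagenase-digested fat of male C57BL/6 mice. The groups were epididymal adipocytes on the high-fat diet (EPI HFD) and on the normal diet (EPI ND), inguinal adipocytes on the high-fat diet (SUB HFD) and on the normal diet (SUB ND), and interscapular brown adipocytes on the high-fat diet (BAT HFD) and on the normal diet (BAT ND). Diets were given for 16 weeks from weaning at 3 weeks. Each white group had 3 libraries and each brown group 1, for 14 in all, and every library pooled the tissue of 3 to 5 mice. Values are FPKM (fragments scaled to transcript length and to the mapped total of the library), so levels of different genes are compared per length.

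Adipocytes take up most of their fatty acids from triglyceride-rich lipoproteins. Adipocytes make lipoprotein lipase (LPL), and the endothelial protein GPIHBP1 carries it to the capillary lumen, where it releases fatty acids from chylomicrons and very low density lipoproteins. CD36 and the SLC27 (FATP) proteins take part in uptake across the plasma membrane, ACSL1 couples the acid to coenzyme A, and fatty acid binding proteins (FABPs) carry it through the cytosol. Several of these genes are known targets of the nuclear receptor PPAR gamma in adipocytes.

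RefSeq promoter windows of GRCm38.p6, from 250 bases before to 50 after an annotated start of a gene, were found for 6 of the 10 genes (10 windows in all: 3 of Slc27a1, a pair each of Acsl1 and Vldlr, and 1 each of Cd36, Slc27a4 and Fabp3). They were searched on both strands for the direct repeat bound by PPAR and RXR, a pair of AGGTCA motifs with any 1 base between them, with up to 2 mismatches. A match was in 1 of the 10 windows, that of Cd36, from 63 to 51 bases before the start, on the strand opposite to the gene and with 2 mismatches. That Cd36 start lies inside the span of the gene (17781690 to 17888959), not at its outer end. Of all 32851 promoter windows of that length, 3.86% held a match. The letters TATAAA were in 0 of the 10 windows and in 13.6% of all windows. The 250 bases before the start are printed for Cd36, which holds the match, for Slc27a4 and Vldlr, which passed the test of diet in both white depots, and for Fabp3, which was highest in BAT HFD. Capitals mark the match and all other bases are in lower case. They lie at chr5:17835897-17836146 on the minus strand (Cd36), and on the plus strand at chr2:29802384-29802633 (Slc27a4), chr19:27216234-27216483 (Vldlr, the first of its windows) and chr4:130308488-130308737 (Fabp3).
Cd36: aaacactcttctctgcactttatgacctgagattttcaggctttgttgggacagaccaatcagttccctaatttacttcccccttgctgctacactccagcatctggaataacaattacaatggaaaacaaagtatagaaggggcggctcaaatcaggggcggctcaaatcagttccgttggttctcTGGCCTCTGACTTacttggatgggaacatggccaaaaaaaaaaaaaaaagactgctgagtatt
Slc27a4: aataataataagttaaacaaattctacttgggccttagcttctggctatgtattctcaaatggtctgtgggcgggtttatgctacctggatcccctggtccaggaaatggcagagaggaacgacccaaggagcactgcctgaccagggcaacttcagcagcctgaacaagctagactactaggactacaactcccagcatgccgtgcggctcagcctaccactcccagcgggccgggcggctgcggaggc
Vldlr: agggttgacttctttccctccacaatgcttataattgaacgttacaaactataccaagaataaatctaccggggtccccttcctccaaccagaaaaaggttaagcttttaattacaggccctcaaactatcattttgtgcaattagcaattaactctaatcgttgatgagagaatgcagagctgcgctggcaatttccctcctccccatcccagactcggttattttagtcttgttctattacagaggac
Fabp3: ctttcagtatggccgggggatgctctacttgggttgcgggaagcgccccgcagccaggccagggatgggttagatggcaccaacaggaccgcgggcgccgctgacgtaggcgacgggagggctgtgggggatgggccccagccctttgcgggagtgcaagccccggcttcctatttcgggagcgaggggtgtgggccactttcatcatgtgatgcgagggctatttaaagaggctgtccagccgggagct

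Per length, the 10 genes spanned a wide range of levels. Fabp4, the adipocyte fatty acid binding protein, ranked 1st among 20238 nuclear protein-coding genes in each of the 14 libraries, with 7442 to 22266 FPKM. Lpl and Cd36 were next, between 664 and 3070 FPKM. Acsl1 ranged between 211 and 1066 FPKM, Slc27a1 between 68.0 and 259, Fabp5 between 46.7 and 304, and Gpihbp1 between 8.95 and 277 FPKM. Vldlr and Slc27a4 lay between 4.81 and 71.1 FPKM, and Fabp3 was at 5.68 FPKM or lower in every library except BAT HFD. Together the 10 genes made up 3.34% to 7.18% of nuclear protein-coding FPKM.

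**Figure D1:**
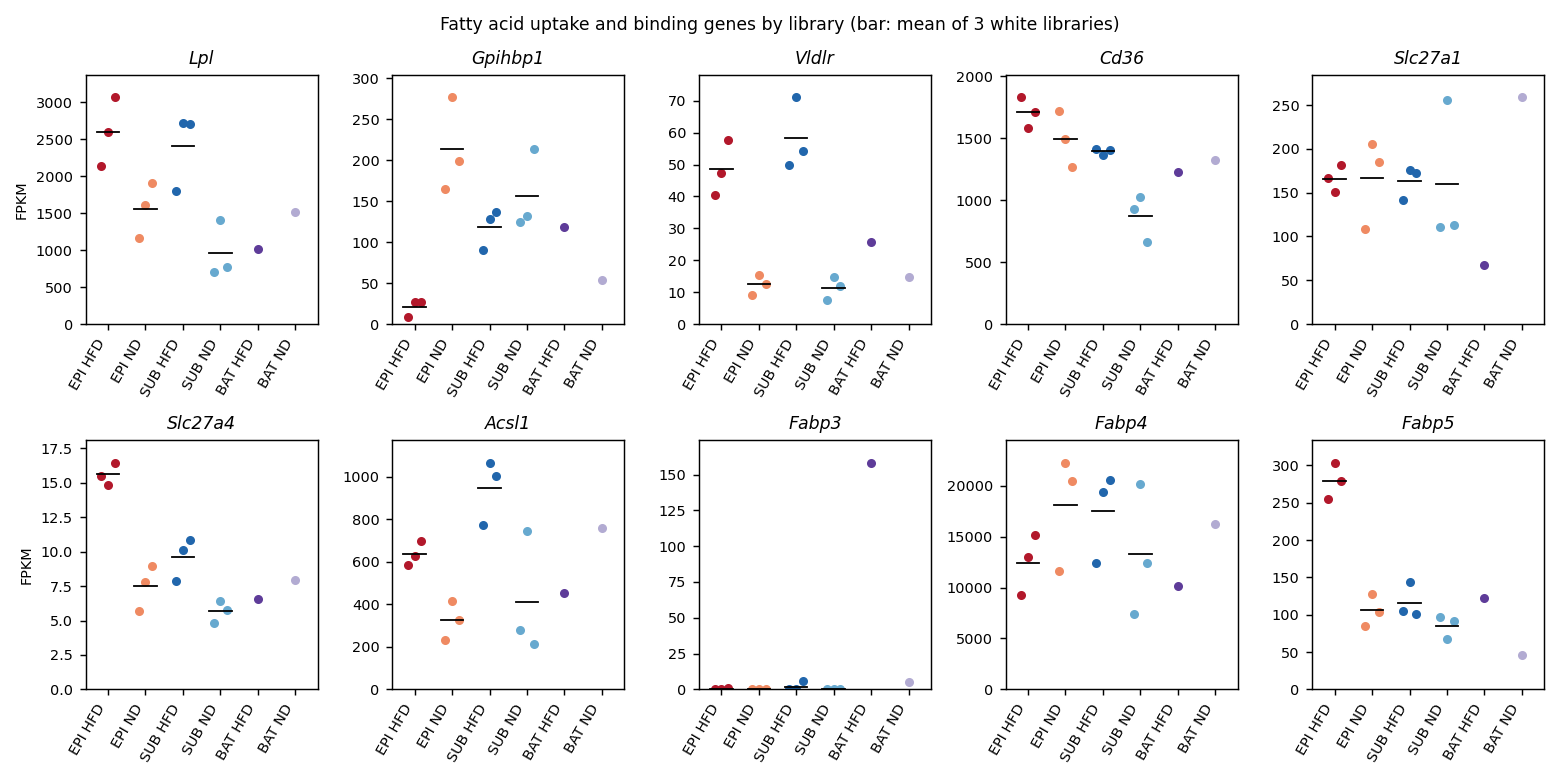
FPKM of each of the 10 genes (y axis, linear, from 0) in each library, by group on the x axis; points are libraries and bars are the means of 3 white libraries. Vldlr stood higher in all HFD than in all ND white libraries, Gpihbp1 lay at 8.95 to 26.8 FPKM in EPI HFD, against 165 to 277 FPKM in EPI ND, and Fabp3 reached 158 FPKM in BAT HFD.

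Each of 10 adipocyte markers was above 0 in every group, but their summed level differed. It was 12111 to 19167 FPKM in EPI HFD, against 19487 to 31143 FPKM in EPI ND, without overlap. The sum was 14913 to 20944 FPKM in SUB HFD, against 14749, 31163 and 15518 FPKM in SUB ND replicates 0, 1 and 2. BAT HFD had 13652 FPKM and BAT ND 32418 FPKM. By limma 1 of the 10 rose and 1 fell in epididymal adipocytes, and 2 rose and 1 fell in inguinal ones. Their part in the differences below was not tested. The thermogenic brown-fat gene Ucp1 stood at 503 FPKM in BAT HFD and 121 FPKM in BAT ND. Transcripts of the mitochondrial genome held 82.5% of protein-coding FPKM in BAT HFD and 80.7% in BAT ND. The share was 26.9% to 37.0% in EPI HFD, against 40.3% to 66.7% in EPI ND, without overlap. It was 26.9% to 35.2% in SUB HFD, against 52.1%, 20.6% and 60.7% in SUB ND replicates 0, 1 and 2. With values scaled to nuclear protein-coding genes, the diet test called as many of the 10 genes as without (3 higher and 1 lower in epididymal, 4 higher in inguinal adipocytes). In the mitochondrial share SUB ND replicate 1 was the lowest of the 14 libraries, and SUB ND replicates 0 and 2 lay within the EPI ND range. The summed level of 12 lymphocyte markers was 655, 78.2 and 1006 FPKM in SUB ND replicates 0, 1 and 2, against 18.5 FPKM or less in every other library. SUB ND replicates 0 and 2 thus stood apart in these markers, and all 12 markers fell in SUB HFD against SUB ND. Their part in the inguinal differences below was not tested, and each inguinal log2 difference printed below is also given without both libraries, as an adjusted p or with its value. Read depth is unknown, because it is not given with the FPKM values and was not derived from them. Every test below is limma on log2(FPKM + 0.5) over 14959 genes in the 12 white libraries, with Benjamini-Hochberg adjusted p under 0.05 as a call, and a log2 difference on this scale understates changes of low genes. All 10 genes passed the filter of 0.5 FPKM in at least 3 white libraries, Fabp3 with 5 libraries and the other 9 with all 12.

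In epididymal adipocytes the high-fat diet was accompanied by higher Vldlr, Slc27a4 and Fabp5 and by lower Gpihbp1. Thus 3 of the 10 genes rose and 1 fell by limma, against 19.5% of all genes called (12.2% higher and 7.35% lower). In inguinal adipocytes 4 of the 10 rose (Lpl, Vldlr, Slc27a4 and Acsl1) and 0 fell, against 19.5% of all genes called (9.3% higher and 10.2% lower). The median log2 difference, HFD minus ND, of the 10 genes was 0.76 in epididymal and 0.70 in inguinal adipocytes, beside 0.07 and -0.01 over all genes. HFD and ND libraries did not overlap for 6 of the 10 genes in each depot, beside 42.4% of all genes in epididymal and 33.1% in inguinal adipocytes. Across the genes that overlapped, the limma adjusted p was 0.554 to 0.956 in epididymal and 0.493 to 0.792 in inguinal adipocytes. Of 10 progenitor and fibroblast markers, 5 fell and 1 rose on the high-fat diet in each white depot, and their part was not tested. When values were scaled to genes off the mitochondrial genome, a sum of which the largest feature of each library (not the same one in all) held 27.5% to 91.2%, Slc27a4 and Fabp5 did not pass in epididymal adipocytes (limma adjusted p = 0.388 and 0.163), nor Lpl, Slc27a4 and Acsl1 in inguinal ones (0.0702, 0.118 and 0.0726), with the directions kept.

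**Figure D2:**
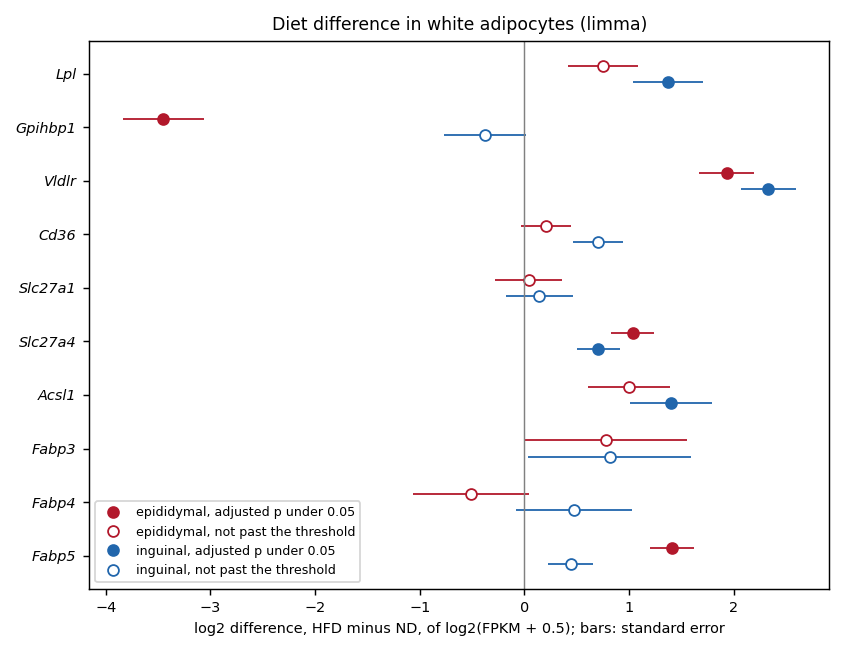
Log2 difference, HFD minus ND, of log2(FPKM + 0.5) for each gene in epididymal (red) and inguinal (blue) adipocytes, with its limma standard error as a bar; filled points passed an adjusted p of 0.05. Vldlr and Slc27a4 passed in both depots on the high side, and Gpihbp1 stood at -3.45 in epididymal adipocytes.

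Gene positions are those of RefSeq on GRCm38.p6. Gpihbp1 (ENSMUSG00000022579, chromosome 15, 75596630 to 75598213), the endothelial partner of LPL, fell in epididymal adipocytes. It had 8.95, 26.8 and 26.7 FPKM in EPI HFD replicates 0, 1 and 2, against 165, 277 and 199 FPKM in EPI ND. The groups did not overlap, and EPI HFD replicate 0 was the lowest of the 14 libraries. The mean was 20.8 ± 10.3 FPKM in EPI HFD and 214 ± 57.2 FPKM in EPI ND (SD, n = 3 each), which was 10.3-fold lower in EPI HFD (log2 difference -3.45, SE 0.39, limma adjusted p = 0.000103). Inguinal libraries had 90.6, 128 and 137 FPKM in SUB HFD, against 124, 131 and 213 FPKM in SUB ND. These groups overlapped and did not pass (limma adjusted p = 0.527). The diet difference itself differed between the depots: the interaction, epididymal minus inguinal, was -3.07 (SE 0.55, limma adjusted p = 0.00868). Gpihbp1 was the 1 gene of the 10 that passed the interaction test, against 7.22% of all genes (4.8% higher and 2.42% lower).

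Markers of endothelial cells moved with Gpihbp1. All 11 endothelial markers fell in epididymal adipocytes on the high-fat diet (median log2 difference -2.71), and their summed level was 63.9 to 122 FPKM in EPI HFD, against 661 to 748 FPKM in EPI ND. In inguinal adipocytes 1 of the 11 fell, and the sum was 361 to 462 FPKM in SUB HFD, against 463 to 851 FPKM in SUB ND. All 11 also passed the interaction test on the low side. Relative to the mean log2 level of these markers, Gpihbp1 stood 0.93, 1.54 and 1.63 log2 units higher in EPI HFD libraries, against 1.71, 2.26 and 2.05 in EPI ND libraries. The same quantity was 1.89 to 2.01 in SUB HFD and 1.58 to 1.95 in SUB ND. The 3 EPI HFD libraries lay below the 3 EPI ND ones only narrowly, with 1.63 in EPI HFD replicate 2 and 1.71 in EPI ND replicate 0. Differences on this scale understate changes of low genes, and the part of the constant added before the log was not tested. Whether Gpihbp1 fell more than these markers is thus not shown. In bulk RNA, fewer cells of a type and less RNA per cell cannot be told apart. The part of endothelial cell content in the Gpihbp1 difference was not tested.

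Lpl (ENSMUSG00000015568, chromosome 8, 68880555 to 68906932) had 2135, 2603 and 3070 FPKM in EPI HFD, against 1163, 1614 and 1906 FPKM in EPI ND. Every EPI HFD library lay above every EPI ND one, but the log2 difference of 0.75 (SE 0.33) did not pass (limma adjusted p = 0.146; 0.0376 with array weights). Inguinal levels of Lpl were 1796, 2724 and 2701 FPKM in SUB HFD, against 706, 1404 and 769 FPKM in SUB ND. The groups did not overlap, and Lpl was 2.51-fold higher in SUB HFD (log2 difference 1.37, SE 0.33, limma adjusted p = 0.0149). The 2 diet differences were not shown to differ (limma adjusted p of the interaction 0.499). The inguinal call was lost without SUB HFD replicate 1, SUB HFD replicate 2 or SUB ND replicate 0 (limma adjusted p = 0.0606, 0.0569 and 0.0556). It was also lost without both SUB ND libraries high in lymphocyte markers (log2 difference 0.75, adjusted p = 0.289), with quantile normalization (0.63, adjusted p = 0.124), with only the 2 inguinal groups in the fit (adjusted p = 0.124) and with no filter on low genes (adjusted p = 0.0516).

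The level of Gpihbp1 was also set against that of its ligand. Gpihbp1 FPKM per 100 FPKM of Lpl was 0.419, 1.03 and 0.870 in EPI HFD, against 14.2, 17.1 and 10.4 in EPI ND, and 5.05, 4.69 and 5.07 in SUB HFD, against 17.6, 9.35 and 27.7 in SUB ND. HFD and ND libraries did not overlap in either depot, and the ratio carries no test of its own. In the single brown libraries it was 11.7 in BAT HFD and 3.59 in BAT ND.

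**Figure D3:**
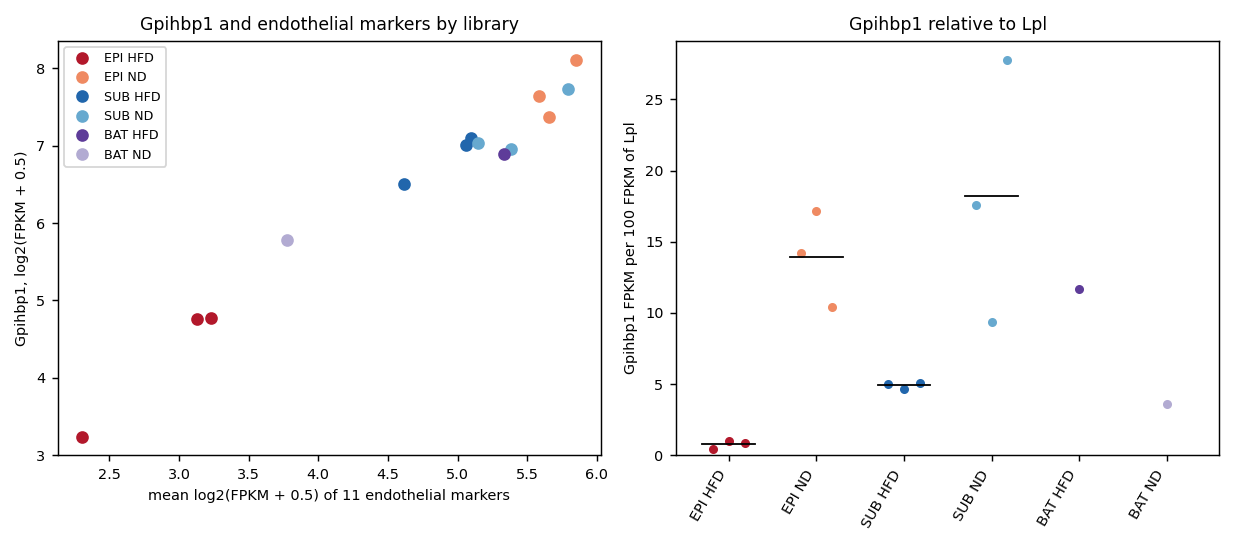
Left, log2(FPKM + 0.5) of Gpihbp1 (y axis) against the mean log2(FPKM + 0.5) of 11 endothelial markers (x axis), 1 point per library. Right, Gpihbp1 FPKM per 100 FPKM of Lpl by group, with bars at the means of 3 white libraries. The 3 EPI HFD libraries sit lowest on both axes at left, and at 0.419 to 1.03 at right.

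Vldlr (ENSMUSG00000024924, chromosome 19, 27216480 to 27254231), the receptor that binds apolipoprotein E-rich very low density lipoproteins, rose in both white depots. It had 40.3, 47.4 and 57.7 FPKM in EPI HFD, against 9.24, 15.3 and 12.7 FPKM in EPI ND. Inguinal levels were 49.8, 71.1 and 54.2 FPKM in SUB HFD, against 7.61, 14.8 and 11.95 FPKM in SUB ND. All 6 HFD libraries lay above all 6 ND libraries. Vldlr was 3.90-fold higher in EPI HFD (log2 difference 1.94, SE 0.26, limma adjusted p = 0.000347) and 5.09-fold higher in SUB HFD (2.33, SE 0.26, adjusted p = 0.000289). Without both SUB ND libraries high in lymphocyte markers the inguinal difference was 1.92 (adjusted p = 0.00739). The single brown libraries had 25.6 FPKM in BAT HFD and 14.6 FPKM in BAT ND. BAT HFD lay between the white HFD and ND libraries, and BAT ND within the range of the white ND ones.

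Among the membrane proteins, Slc27a4 (ENSMUSG00000059316, chromosome 2, 29802634 to 29817522), which encodes the transporter and acyl-CoA synthetase FATP4, rose in both white depots. It had 15.5, 14.8 and 16.5 FPKM in EPI HFD, against 5.67, 7.79 and 8.96 FPKM in EPI ND. Inguinal Slc27a4 stood at 7.87, 10.1 and 10.8 FPKM in SUB HFD, against 4.81, 6.44 and 5.77 FPKM in SUB ND. In each depot the HFD libraries lay above the ND ones without overlap. The folds were 2.09 in EPI HFD over EPI ND (log2 difference 1.04, SE 0.20, limma adjusted p = 0.00396) and 1.69 in SUB HFD over SUB ND (0.71, SE 0.20, adjusted p = 0.0312). The inguinal call was lost without SUB HFD replicate 1, SUB HFD replicate 2, SUB ND replicate 0 or SUB ND replicate 2 (limma adjusted p = 0.0584 to 0.114), without both SUB ND libraries high in lymphocyte markers (0.53, adjusted p = 0.308), and with only the 2 inguinal groups in the fit (adjusted p = 0.111).

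Slc27a1 (ENSMUSG00000031808, chromosome 8, 71568728 to 71587307), which encodes FATP1, did not pass in either depot. It had 150 to 181 FPKM in EPI HFD, against 109 to 206 FPKM in EPI ND, and 142 to 176 FPKM in SUB HFD, against 111 to 256 FPKM in SUB ND. The groups overlapped in both depots, and the ND groups spread more widely than the HFD ones. Slc27a1 was the main member of its family, at 89.7% to 96.4% of the summed FPKM of Slc27a1 to Slc27a6 in white libraries. The share of Slc27a4 was 8.28% to 8.85% in EPI HFD, against 3.60% to 4.86% in EPI ND, and 5.19% to 5.83% in SUB HFD, against 2.42% to 4.56% in SUB ND. These shares did not overlap between diets in either depot.

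Cd36 (ENSMUSG00000002944, chromosome 5, 17781690 to 17888959), the scavenger receptor that binds long-chain fatty acids, had 1831, 1585 and 1709 FPKM in EPI HFD, against 1716, 1492 and 1266 FPKM in EPI ND. These groups overlapped. Cd36 stood at 1415, 1364 and 1408 FPKM in SUB HFD, against 930, 1025 and 664 FPKM in SUB ND. The inguinal groups did not overlap, and the 1.60-fold higher mean in SUB HFD (log2 difference 0.70, SE 0.24) stood just outside the threshold (limma adjusted p = 0.0585). Leaving out SUB ND replicate 1 put it past the threshold (0.83, adjusted p = 0.0124), as did a filter of 2 FPKM, array weights and no trend (adjusted p = 0.029 to 0.047), and leaving out both SUB ND libraries high in lymphocyte markers gave 0.45 (adjusted p = 0.361).

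Acsl1 (ENSMUSG00000018796, chromosome 8, 46471037 to 46536051), the main long-chain acyl-CoA synthetase of adipocytes, had 585, 628 and 696 FPKM in EPI HFD, against 233, 415 and 328 FPKM in EPI ND. The groups did not overlap, but the log2 difference of 1.00 (SE 0.39) did not pass (limma adjusted p = 0.0971), though it did with array weights (0.016) and with only the 2 epididymal groups (0.0263). In inguinal adipocytes it had 771, 1066 and 1004 FPKM in SUB HFD, against 281, 745 and 211 FPKM in SUB ND. SUB ND replicate 1 lay near the SUB HFD libraries and the other 2 far below. Acsl1 was 2.30-fold higher in SUB HFD (log2 difference 1.41, SE 0.39, limma adjusted p = 0.0267). This call was lost without SUB HFD replicate 1, SUB HFD replicate 2, SUB ND replicate 0 or SUB ND replicate 2 (limma adjusted p = 0.0800 to 0.0953), with only the 2 inguinal groups (0.132) and with no filter (0.0565). Without both SUB ND replicates 0 and 2, the pair high in lymphocyte markers, it was 0.33 (adjusted p = 0.612).

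Within the family of Acsl1 and Acsl3 to Acsl6, Acsl1 made up 88.1% to 97.3% of summed FPKM in the 14 libraries. The share of Acsl5, a synthetase of the same family, was 1.48% to 2.00% in SUB HFD, against 2.98% to 8.74% in SUB ND, and 4.10% to 4.50% in EPI HFD, against 4.77% to 6.04% in EPI ND. In both depots the HFD libraries lay below the ND ones, and these shares carry no test. In SUB ND the share was 5.49%, 2.98% and 8.74% in replicates 0, 1 and 2, highest in the pair high in lymphocyte markers. The part of lymphocyte RNA in these shares was not tested. The level of Acsl5 itself rose in epididymal adipocytes, 1.60-fold in EPI HFD over EPI ND (log2 difference 0.67, SE 0.17, limma adjusted p = 0.017), less than the 1.96-fold of the Acsl1 means. That Acsl5 call was lost without EPI HFD replicate 1 or 2 or EPI ND replicate 0 (adjusted p = 0.0585 to 0.0625) and with scaling to genes off the mitochondrial genome (0.716).

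Fabp5 (ENSMUSG00000027533, chromosome 3, 10012585 to 10016610), the epidermal fatty acid binding protein, also made by macrophages, rose in epididymal adipocytes. It had 255, 304 and 279 FPKM in EPI HFD, against 85.5, 128 and 104 FPKM in EPI ND. The groups did not overlap, and the 3 EPI HFD libraries were the highest of all 14. The mean was 279 ± 24.7 FPKM in EPI HFD and 106 ± 21.4 FPKM in EPI ND (SD, n = 3 each), 2.64-fold higher in EPI HFD (log2 difference 1.41, SE 0.21, limma adjusted p = 0.000693). In inguinal adipocytes it had 105, 144 and 100 FPKM in SUB HFD, against 96.9, 67.4 and 91.8 FPKM in SUB ND. SUB HFD lay above SUB ND without overlap, but the log2 difference of 0.44 (SE 0.21) did not pass (limma adjusted p = 0.165). The interaction was 0.97 (SE 0.30) and also did not pass (limma adjusted p = 0.0760). Without SUB ND replicate 1 the interaction was 1.13 (adjusted p = 0.0184), with array weights 0.89 (adjusted p = 0.0381), and without both SUB ND libraries high in lymphocyte markers 0.65 (adjusted p = 0.321). Without that pair the inguinal difference was 0.76 (adjusted p = 0.135).

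Macrophage markers moved with Fabp5 in epididymal adipocytes. Of 15 such markers, 9 rose and 0 fell in EPI HFD against EPI ND (median log2 difference 2.09), and their summed level was 1980 to 3495 FPKM in EPI HFD, against 527 to 1041 FPKM in EPI ND. In inguinal adipocytes 5 of the 15 rose, and the sum was 364 to 582 FPKM in SUB HFD, against 239 to 617 FPKM in SUB ND. By the likeness rule given below, the gene nearest to Fabp5 was the macrophage marker Itgax, which encodes CD11c. The part of macrophage RNA in the Fabp5 difference was not tested.

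Fabp4 (ENSMUSG00000062515, chromosome 3, 10204342 to 10208616) lies in the same gene cluster as Fabp5, with Pmp2, Fabp9 and Fabp12. It had 9226, 12967 and 15152 FPKM in EPI HFD, against 11590, 22266 and 20421 FPKM in EPI ND. In inguinal adipocytes it had 12444, 19394 and 20582 FPKM in SUB HFD, against 7442, 20129 and 12395 FPKM in SUB ND. The groups overlapped in both depots and neither difference passed. Fabp4 made up 97.2% to 99.7% of the summed FPKM of its family in every library. The share of Fabp5 was 1.81% to 2.68% in EPI HFD, against 0.506% to 0.733% in EPI ND, without overlap. In inguinal adipocytes it was 0.485% to 0.835% in SUB HFD, against 0.334% to 1.29% in SUB ND, with overlap.

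**Figure D4:**
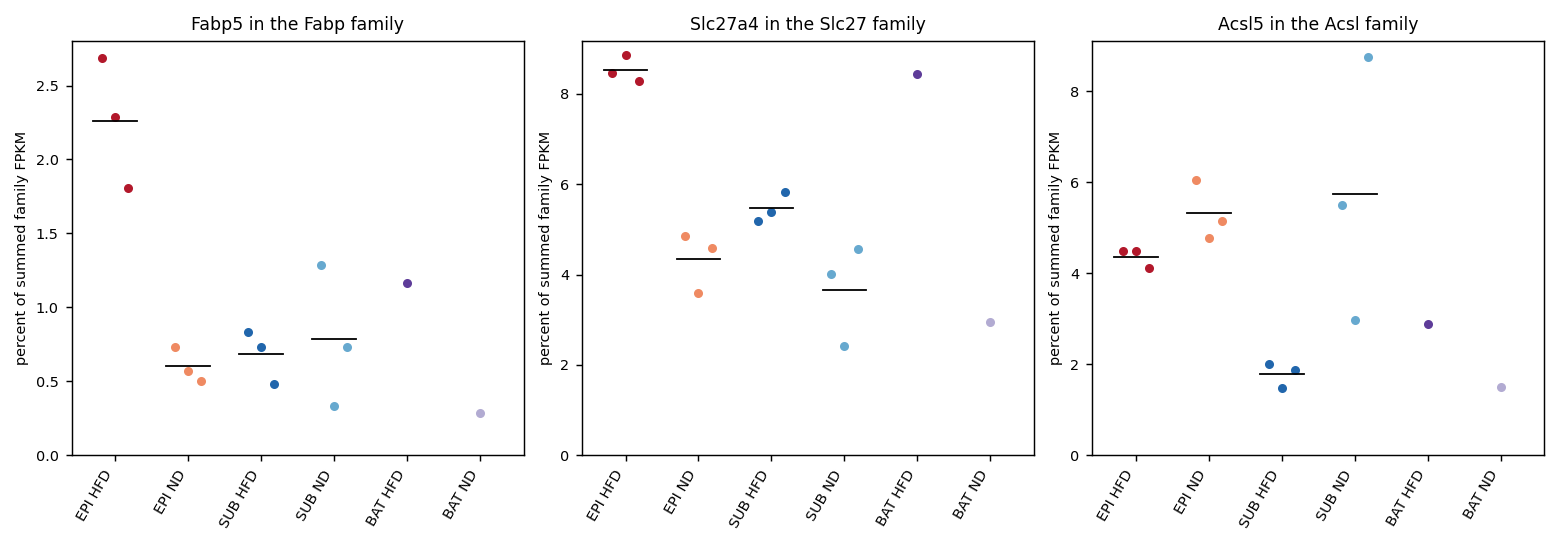
Percent of the summed FPKM of its family, from 0, for Fabp5 (left), Slc27a4 (middle) and Acsl5 (right) in each library, with bars at the means of 3 white libraries. EPI HFD libraries stand highest for Fabp5, at 1.81% to 2.68%, and SUB HFD libraries lie at 1.48% to 2.00% for Acsl5, below SUB ND.

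Fabp3 (ENSMUSG00000028773, chromosome 4, 130308738 to 130315463), the heart-type fatty acid binding protein, stood highest in BAT HFD. It had 158 FPKM in BAT HFD and 5.23 FPKM in BAT ND. In white adipocytes it had 0.596, 0.508 and 0.706 FPKM in EPI HFD and was listed at 0, 0 and 0.558 FPKM in EPI ND. It was listed at 0, 0 and 5.68 FPKM in SUB HFD and at 0.203, 0.305 and 0 FPKM in SUB ND. No fold is given against groups with values listed at 0, which can be failed estimates. The white library with 5.68 FPKM, SUB HFD replicate 2, also had the highest white level of Ucp1, at 36.1 FPKM, while the other 11 white libraries had 3.29 FPKM or less. In that library the skeletal muscle marker Ckm had 0.610 FPKM, and it was listed at 0 in every other white library. The 9 skeletal muscle markers summed to 25.9 FPKM there, within the white range of 6.53 to 39.0 FPKM. The part of brown adipocyte or muscle RNA in the Fabp3 level was not tested.

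**Figure D5:**
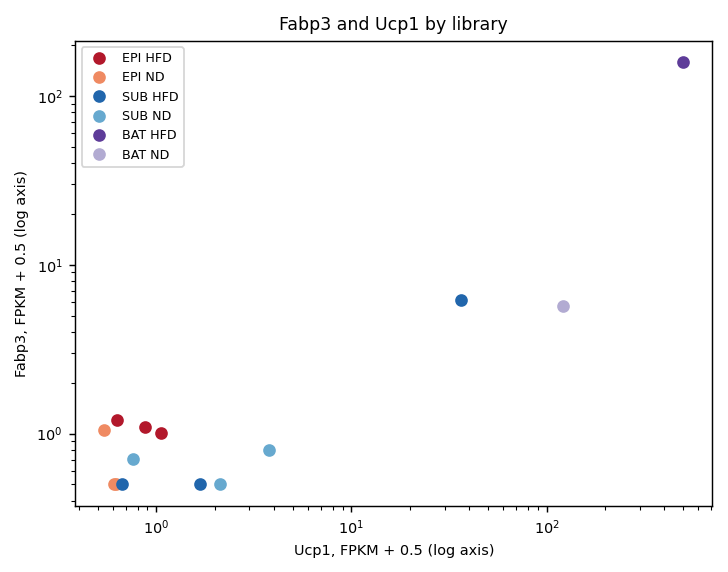
FPKM + 0.5 of Fabp3 (y axis) against that of Ucp1 (x axis), both on log axes, 1 point per library. The BAT HFD library is at upper right (158 and 503 FPKM), and SUB HFD replicate 2 (5.68 and 36.1 FPKM) stands apart from the other 11 white libraries.

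Brown adipocytes were compared with the white means of the same diet without a test, since each diet had 1 brown library. Brown fat was digested with collagenase for 40 min and white fat for 20 min, so depot and digestion time cannot be told apart in these comparisons. On the high-fat diet, 2 of the 10 genes were 2-fold or more higher in BAT HFD than in EPI HFD (Gpihbp1 and Fabp3), against 4.88% of genes, and 4 were 2-fold or more lower (Lpl, Slc27a1, Slc27a4 and Fabp5), against 18.1%. Against SUB HFD, 1 gene was higher (Fabp3), beside 2.81% of genes, and 4 were lower (Lpl, Vldlr, Slc27a1 and Acsl1), beside 10.8%. On the normal diet, Acsl1 and Fabp3 were 2-fold or more higher in BAT ND than in EPI ND and than in SUB ND (2 of the 10 each, beside 3.93% and 4.41% of genes). Gpihbp1 and Fabp5 were 2-fold or more lower in BAT ND than in EPI ND (2 of 10, beside 20% of genes), though Fabp5 was higher (log2 difference 0.70) with scaling to genes off the mitochondrial genome, and Gpihbp1 was lower than in SUB ND (1 of 10, beside 25.2%). The counts on the low side depended on the scaling: 0 of the 10 genes were 2-fold lower in BAT HFD than in either EPI HFD or SUB HFD with TMM factors.

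Between the brown libraries, 3 genes were 2-fold or more higher in BAT HFD than in BAT ND, against 11.7% of genes, and 1 was lower, against 5.57%. Slc27a1 was the lower one, with 68.0 FPKM in BAT HFD and 259 FPKM in BAT ND, which were below and above each of the 12 white libraries. The higher ones were Fabp3, Gpihbp1 (118 FPKM in BAT HFD and 54.3 FPKM in BAT ND) and Fabp5 (122 FPKM in BAT HFD and 46.7 FPKM in BAT ND). Lpl had 1015 FPKM in BAT HFD and 1513 FPKM in BAT ND, and Acsl1 had 453 FPKM in BAT HFD and 759 FPKM in BAT ND, so that both were lower in BAT HFD, while in white adipocytes the HFD means were the higher ones. Markers of other cells also differed: the 11 endothelial markers summed to 535 FPKM in BAT HFD and 166 FPKM in BAT ND, the 15 macrophage markers to 257 FPKM in BAT HFD and 30.3 FPKM in BAT ND, where 4 of them were at 0, and the 9 skeletal muscle markers to 144 FPKM in BAT HFD and 59.9 FPKM in BAT ND. The 8 brown adipocyte markers summed to 1597 FPKM in BAT HFD and 487 FPKM in BAT ND. Their part in these differences was not tested.

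Between the white depots on the high-fat diet, Gpihbp1 was lower in EPI HFD than in SUB HFD, and Fabp5 was higher, except that its sign turned (-0.60) with scaling to genes off the mitochondrial genome. In this contrast that scaling moved the median log2 difference of all genes to -1.60, with 55 genes called higher and 10891 lower. Gpihbp1 was 5.69-fold lower in EPI HFD (log2 difference -2.61, SE 0.39, limma adjusted p = 0.00194) and Fabp5 2.40-fold higher (1.28, SE 0.21, adjusted p = 0.00331), on the values given above. These were 2 of the 10 genes, against 10.6% of all genes called (7.08% higher and 3.53% lower). EPI HFD and SUB HFD libraries did not overlap for 5 of the 10 genes (the above with Cd36, Slc27a4 and Acsl1), beside 38.4% of all genes. All 11 endothelial markers were lower and 13 of 15 macrophage markers higher in EPI HFD, and their part was not tested. Same-numbered libraries of these groups deviated together, so the fit with the replicate number as a block is given too: it also called Slc27a4 higher in EPI HFD (log2 difference 0.68, limma adjusted p = 0.0247, against 0.0538 without the block), while the same scaling turned its sign (-1.12). Slc27a4 also passed with TMM factors, array weights, a filter of 2 FPKM and only the compared groups (adjusted p = 0.00522 to 0.0443).

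On the normal diet, 0 of the 10 genes passed between EPI ND and SUB ND by limma, against 6.51% of all genes called (2.36% higher and 4.15% lower), and 2 of them (Cd36 and Lpl) had an unadjusted p under 0.05. Cd36 was 1.71-fold higher in EPI ND (log2 difference 0.79, SE 0.24, limma adjusted p = 0.0711). That sign turned when values were scaled to genes off the mitochondrial genome (-0.55), a scaling that put the median of all genes at -1.18. The EPI ND libraries of Cd36 lay above its SUB ND ones. It was the 1 gene of the 10 without overlap, beside 19.1% of all genes. Without SUB ND replicate 1 it passed (0.91, adjusted p = 0.0130), as with array weights (0.0352) and no trend (0.0442), and without both SUB ND libraries high in lymphocyte markers it did not (0.53, adjusted p = 0.331). All 12 lymphocyte markers were lower and all 6 mesothelial markers higher in EPI ND than in SUB ND, and their part was not tested.

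The mean levels ordered the groups differently for each gene. For Fabp5 the order was EPI HFD, BAT HFD, SUB HFD, EPI ND, SUB ND and BAT ND, with EPI HFD clear of the next group, BAT ND below every SUB ND library, and BAT HFD, SUB HFD, EPI ND and SUB ND overlapping with their neighbours. For Gpihbp1 it was EPI ND, SUB ND, BAT HFD, SUB HFD, BAT ND and EPI HFD, with BAT ND and EPI HFD each below all libraries of the group before. For Vldlr, SUB HFD and EPI HFD overlapped at the top and stood clear of BAT HFD, which stood clear of BAT ND, EPI ND and SUB ND. For Acsl1 the order was SUB HFD, BAT ND, EPI HFD, BAT HFD, SUB ND and EPI ND. There SUB ND overlapped with both BAT HFD and EPI ND, while BAT HFD lay above every EPI ND library.

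Other genes of lipoprotein and fatty acid handling were described from 7 lists with 50 genes in all, of which 40 passed the filter. In epididymal adipocytes 8 of the 40 rose and 6 fell on the high-fat diet, against 12.2% of all genes higher and 7.35% lower, and in inguinal adipocytes 10 rose and 5 fell, against 9.3% higher and 10.2% lower. Of 9 genes that handle LPL, 3 rose in epididymal adipocytes (Sel1l, Angptl4 and Angptl8) and 5 in inguinal ones (among them the same 3 and Apoc2), and 0 fell in either. Angptl8, which encodes a secreted regulator of LPL activity, averaged 19.9 ± 3.60 FPKM in EPI HFD and 1.85 ± 1.24 FPKM in EPI ND (SD, n = 3 each). In inguinal adipocytes it had 16.7 to 28.8 FPKM in SUB HFD, against up to 8.69 FPKM in SUB ND, where 1 library was listed at 0. Its log2 differences were 3.27 (limma adjusted p = 0.0162) and 3.05 (adjusted p = 0.0245). The epididymal call was lost without EPI HFD replicate 1 or EPI ND replicate 2 (adjusted p = 0.0582 to 0.0671), and the inguinal one without SUB HFD replicate 0 or SUB HFD replicate 1 (0.0694 to 0.0798) and without both SUB ND libraries high in lymphocyte markers (0.198).

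With only the 2 inguinal groups in the fit, Angptl8, Apoc2, Flt1 and Slc43a3 did not pass (limma adjusted p = 0.0531 to 0.114), and with a pseudocount of 0.1 Angptl8 passed in neither depot (0.0651 in epididymal and 0.0506 in inguinal adipocytes). With no filter, inguinal Angptl8 and Apoc2 did not pass (0.057 and 0.0761). Apoc2, the activator of LPL, had 3.23 ± 0.419 FPKM in SUB HFD and 0.782 ± 0.511 FPKM in SUB ND (SD, n = 3 each; log2 difference 1.61, limma adjusted p = 0.0357). Its call was lost without SUB HFD replicate 0, 1 or 2 or SUB ND replicate 0 or 2 (adjusted p = 0.0756 to 0.112), and without SUB ND replicates 0 and 2 together (0.428).

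Of 5 genes of endothelial fatty acid uptake, 4 fell in epididymal adipocytes (Flt1, Nrp1, Meox2 and Tcf15) and 1 in inguinal ones (Flt1). Flt1, a receptor of VEGF-B, averaged 3.38 ± 1.15 FPKM in EPI HFD and 31.8 ± 5.89 FPKM in EPI ND (SD, n = 3 each; log2 difference -3.09, limma adjusted p = 1.21e-05). Meox2 and Tcf15, whose products together drive fatty acid transport genes in mouse heart endothelium, had log2 differences of -2.83 (adjusted p = 3.49e-05) and -2.94 (adjusted p = 0.000296). In inguinal adipocytes Flt1 had 13.6 ± 3.07 FPKM in SUB HFD and 25.1 ± 1.22 FPKM in SUB ND (-0.88, limma adjusted p = 0.0297). That call was lost without SUB HFD replicate 0, 1 or 2 or SUB ND replicate 0 or 2 (adjusted p = 0.0503 to 0.114), without SUB ND replicates 0 and 2 together (0.255), and with scaling to genes off the mitochondrial genome (-0.31, adjusted p = 0.726). Endothelial markers, given above, moved with these genes, and their part was not tested.

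Of 8 tested genes of membrane transport, 1 fell in epididymal adipocytes (Slc43a3), while 3 rose (Cav1, Cav2 and Cavin1, of the caveolar coat) and 2 fell (Got2 and Slc43a3) in inguinal ones. Got2, the mitochondrial aspartate aminotransferase that is also described as a fatty acid binding protein of the plasma membrane, averaged 3.86 ± 0.337 FPKM in SUB HFD and 10.6 ± 3.20 FPKM in SUB ND (SD, n = 3 each; log2 difference -1.31, limma adjusted p = 0.00249). The call held without each library in turn and was lost without SUB ND replicates 0 and 2 together (-0.81, adjusted p = 0.0599) and with scaling to genes off the mitochondrial genome (-0.79, adjusted p = 0.337). Slc43a3 had 21.1 ± 2.50 FPKM in SUB HFD and 36.4 ± 7.69 FPKM in SUB ND (-0.76, limma adjusted p = 0.0404), and its call was lost without any 1 of the 6 inguinal libraries (adjusted p = 0.0552 to 0.127). It was also lost without SUB ND replicates 0 and 2 together (-1.09, adjusted p = 0.0704), with no filter, TMM factors, array weights or no trend (0.0547 to 0.0683), and with scaling to genes off the mitochondrial genome (-0.18, adjusted p = 0.858). Fabp7, the brain-type binding protein, had 1.77 to 4.55 FPKM in EPI HFD and was listed at 0 in 2 of 3 EPI ND libraries. The 5 PPAR and RXR genes gave 0 calls by limma in both depots, and 0 had an unadjusted p under 0.05.

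On the high-fat diet, 4 of the 40 genes were higher (Got2, Fabp7 and Acsl5 among them) and 3 lower (Flt1, Meox2 and Tcf15) in EPI HFD than in SUB HFD, against 7.08% of all genes higher and 3.53% lower. Got2 averaged 12.6 ± 0.961 FPKM in EPI HFD and 3.86 ± 0.337 FPKM in SUB HFD (SD, n = 3 each). Its log2 difference was 1.58 (limma adjusted p = 0.00144), and -0.16 with scaling to genes off the mitochondrial genome. That scaling put the median of all genes at -1.60. Acsl5 averaged 29.8 ± 1.17 FPKM in EPI HFD and 17.3 ± 1.96 FPKM in SUB HFD (0.77, limma adjusted p = 0.0135; -1.06 with that scaling). The Acsl5 call was lost without EPI HFD replicate 1 or 2 or SUB HFD replicate 0 or 1 (adjusted p = 0.0506 to 0.0595), and that of Fabp7 without EPI HFD replicate 0 or 1 or SUB HFD replicate 2 (0.0797 to 0.107). The Fabp7 call (1.85, limma adjusted p = 0.0218) was also lost with that scaling (0.71, adjusted p = 0.26), with a pseudocount of 0.1 (0.0756) and with only the compared groups (0.0578). Flt1, Meox2 and Tcf15 had log2 differences of -1.88, -2.37 and -2.03 (limma adjusted p = 0.00118, 0.000567 and 0.00646). On the normal diet, 0 of the 40 passed by limma, against 6.51% of all genes, and 8 had an unadjusted p under 0.05.

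Genes whose level followed each of the 10 were ranked by Pearson's r of log2(FPKM + 0.5) over the 14 libraries, among 8225 genes with a mean of at least 5 FPKM. The libraries share groups and scaling, so r is a description. Gpihbp1 was followed most closely by Esam (r = 0.990), Robo4 (0.985) and Cdh5 (0.985), which are 3 of the 11 endothelial markers. Fabp5 was followed by Itgax (0.960), Plxnd1 (0.956) and Tubb4b (0.951), and Itgax averaged 33.9 FPKM in EPI HFD and 2.25 FPKM in EPI ND. Fabp3 was followed by Letmd1 (0.944), Cox5a (0.912), a subunit of cytochrome c oxidase, and Ucp1 (0.897); all 3 were highest in BAT HFD. Vldlr was followed by Syp (0.979), Nkd1 (0.978) and Crtac1 (0.973), Lpl by Hebp1 (0.972), Emc3 (0.968) and Mcam (0.966), and Acsl1 by Cox19 (0.971), Adora1 (0.966) and Pmepa1 (0.958). Nploc4 (0.966) and Lamtor1 (0.965) were among the 3 genes nearest to Slc27a4, and Cd36 was followed by AI597479 (0.948), Tshr (0.935) and Serinc1 (0.927). Slc27a1 was followed by Whamm (0.908), Ubl5 (0.882) and Usp35 (0.882), and Fabp4 by Gkap1 (0.935), Arl4a (0.932) and Cyb5a (0.925).

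Among the 10 genes, the closest pairs over the 12 white libraries were Lpl with Slc27a4 (Pearson's r = 0.881), Slc27a4 with Fabp5 (0.876), Lpl with Vldlr (0.866) and Vldlr with Acsl1 (0.864). The most opposed pair was Gpihbp1 with Fabp5 (-0.821). These values carry the group differences above and have no test.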

How the data were processed

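The deposited values are FPKM per Ensembl gene, made by the authors with TopHat2 2.0.9 and Cuffdiff 2.1.1 on mm10, per the submitters' processing notes; annotation and strand setting are not given in the sources used here. They are not counts. Ratios of values under 0.1 FPKM between 2 libraries pile up in a narrow bin where values step by whole reads. This was examined in 9 pairs of an EPI HFD and a SUB HFD library. The fullest bin held 8.79% to 15.5% of low genes where both replicates were numbered 1 or 2. It held 1.19% to 1.85% where either was replicate 0. A pile-up was thus seen in replicates 1 and 2 only, and the reason was not tested. Depth was not derived from it, so depth is unknown and the replicate spread alone sets the precision. A symbol was matched to 36638 of 38553 identifiers, and coordinates and promoters are RefSeq's on GRCm38.p6. With a mean-variance trend, limma 3.58.1 (R 4.3.3) fitted 4 group means to log2(FPKM + 0.5) of the 12 white libraries (8 residual degrees of freedom; genes with at least 0.5 FPKM in at least 3 libraries), with 5 contrasts. The script was tested on simulated data. Brown libraries, shares and correlations have no test.

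White libraries are described by the submitters as biological triplicates, each a pool of mice. The labels do not say what replicate numbers mark; for the high-fat depot contrast alone, deviations of same-numbered libraries correlated above 0.1 in every pair (0.184, 0.111 and 0.146), so its blocked fit is given. Named genes were the 10 members; up to 3 list genes called each way per contrast (mean of 1 FPKM or more, groups not overlapping); and 3 nearest genes per member. The members, lists and tests were chosen with earlier results of these data known. Alternatives were another pseudocount (0.1 or 1), another filter (none or 2 FPKM), 4 scalings, array weights, no trend, a replicate block, only the compared groups, and libraries left out singly or as SUB ND replicates 0 and 2. All such fits pool the spread over groups, so a lone library is assumed to vary like the rest. Some list genes and 1 nearest gene are not reported here, though counts over the lists include them. A comparison of protein sequences was not made here.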

Additional observations from a re-analysis of the deposited data

Results flagged for a closer look

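The effect of diet differed between epididymal and inguinal adipocytes, by limma's interaction test with Benjamini-Hochberg adjustment over 14959 genes, for the 6 genes of fatty acid handling given here. Of the 10 genes 0 were called higher and 1 lower, and of the 40 list genes 3 higher and 3 lower. Over all genes the shares were 4.8% higher and 2.42% lower. Each value is the log2 difference, HFD minus ND, in epididymal minus that in inguinal adipocytes. On the low side, Gpihbp1 had -3.07 (adjusted p = 0.00868), Meox2 -2.83 (0.0034), Flt1 -2.21 (0.0064) and Tcf15 -2.10 (0.0418). All 11 endothelial markers passed the same test on the low side (median -2.18), and their part in these values was not tested. The calls of Gpihbp1, Meox2 and Flt1 held without each of the 12 white libraries in turn, and that of Tcf15 was lost without any of 9 of them (adjusted p up to 0.111). On the high side, Got2 had 1.25 (0.0339) and Acsl5 0.90 (0.0461). These calls were lost without any of 11 and 9 of the 12 libraries (adjusted p up to 0.0953 and 0.115). Scaling to genes off the mitochondrial genome lost the calls of Flt1, Tcf15, Got2 and Acsl5 (adjusted p = 0.07 to 0.89), and leaving out SUB ND replicates 0 and 2 together lost that of Got2 (0.151). No filter, no trend, another scaling or array weights also ended calls among Tcf15, Got2 and Acsl5 (0.0511 to 0.0836). No group was large enough for a test of single outlying libraries.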

How the results depend on the processing

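The cause of the changes below was not tested. For the epididymal diet effect, the 4 calls among the 10 genes held without each library in turn (4 in every case; 1819 to 2323 genes in all, against 2918), and array weights gave 5110 genes. For the inguinal diet effect, the 4 calls became 1 to 5 without single libraries (1642 to 4727 genes, against 2914), 2 with no filter, 1 with only the compared groups (713 genes), 1 without SUB ND replicates 0 and 2 (999 genes), and array weights gave 4612 genes. The interaction kept 1 or 2 calls without single libraries (433 to 2627 genes, against 1080), had 2 with array weights (2836 genes), and no filter gave 695 genes. The depot difference on the normal diet had 0 to 2 calls without single libraries (264 to 3092 genes, against 974), 1 with quantile normalization, 2 with array weights (2098 genes) and 1 with no trend; no filter gave 577 genes, leaving out SUB ND replicates 0 and 2 gave 562 and fitting only the compared groups 14. The depot difference on the high-fat diet kept 2 calls without single libraries (783 to 1076 genes, against 1587), and gave 3681 genes with array weights and 2993 with only the compared groups. A block for the replicate number gave 4, 5, 1, 0 and 3 calls among the 10 genes in the 5 contrasts (3404, 3453, 1152, 1085 and 1777 genes). It added Cd36 in inguinal adipocytes (adjusted p = 0.0427) and Slc27a4 between depots on the high-fat diet, and changed no other call reported here. The labels do not say what same-numbered libraries share. In the 2 diet contrasts and the normal-diet depot contrast their deviations also correlated positively, at 0.00688 to 0.272, but not above 0.1 in every pair.

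Scaling to genes off the mitochondrial genome, where the largest feature of a library held 27.5% to 91.2% of the sum, gave 2, 1, 1, 0 and 8 calls, with 570, 1226, 222, 5999 and 10946 genes. It gave opposite signs for the normal-diet depot difference of Cd36 (-0.55) and the high-fat depot differences of Cd36 (-1.59), Slc27a4 (-1.12), Fabp5 (-0.60), Got2 (-0.16) and Acsl5 (-1.06), and for Fabp5 in BAT ND against EPI ND (0.70). Its shifts of the median of all genes were 0.04, 0.52, -0.46, -1.18 and -1.64 (log2). Scaling to nuclear protein-coding genes, chosen after seeing the data, shifted that median by -0.16 in the epididymal diet effect, -0.12 in the interaction and -0.20 in the high-fat depot difference, and quantile normalization and TMM factors shifted the interaction by -0.17 and -0.11. The higher share of calls was 62.3% in the epididymal diet effect, and 46.9% with nuclear protein-coding scaling. It was 66.5% in the interaction, and 55.8%, 48.7% and 47.5% with TMM, quantile and nuclear protein-coding scaling. It was 47.7% in the inguinal diet effect and 59.6% off the mitochondrial genome. It was 36.2% in the normal-diet depot difference, and 52.5% with quantile normalization and 0.450% off the mitochondrial genome. It was 66.7% in the high-fat depot difference, and 41.9% with nuclear protein-coding scaling and 0.502% off the mitochondrial genome. The 2-fold counts of brown libraries changed too. Off the mitochondrial genome they were 8 higher and 0 lower (BAT ND against EPI ND), 5 and 0 (against SUB ND), 0 lower (BAT HFD against EPI HFD), 9 lower (against SUB HFD), and 1 higher and 6 lower (BAT HFD against BAT ND). With TMM factors they were 1 lower (BAT ND against EPI ND), 5 higher (against SUB ND) and 0 lower (BAT HFD against EPI HFD and SUB HFD), and with nuclear protein-coding scaling 0 lower (BAT HFD against EPI HFD) and 1 lower (against SUB HFD). Of 30 pairs of a gene and a contrast for which no log2 difference is printed, 27 changed sign under at least 1 alternative and 5 passed under at least 1. Each pair had 23 to 25 alternatives, of which at most 7 turned the sign, and most of the 27 turned in only 1. With depth unknown, low values such as those of Fabp3 cannot be given a counting error.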
